A study of Drosophila melanogaster with 12 samples.

Results

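In larval fat bodies with a knockdown of TFAM, 10 protein-coding genes used a different mixture of their transcripts than control fat bodies did: sima, Chi, galla-1, nrv2, CG18135, CG9662, CG40160, Cpr49Ac, CG5989 and CG18095. They were chosen by that difference. For each gene with at least 2 RefSeq mRNA transcripts (accessions starting NM_) and a mean of at least 20 TPM in each group, the share of a transcript was its TPM (an abundance per transcript length, scaled to the same sum in each library) as a percentage of the gene's TPM. A gene was kept where the mean share of 1 transcript differed by at least 25 percentage points and the 6 shares of one group all lay above the 6 of the other. Of 1866 eligible genes with 6363 transcripts, 10 met this rule (0.536%), through 15 transcripts. Because the shares chose the genes, they are given as a description with no test.

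One gene can give rise to several mRNAs through different transcription starts, different splice sites and different polyadenylation sites. Such transcripts may encode different proteins, or the same protein with other untranslated ends that affect stability, localisation and translation. In the fly, the choice between splice forms is best known from the sex determination cascade, in which Sxl, tra and tra2 direct the splicing of later genes.

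The fat body is the insect organ of nutrient storage and humoral signalling, and TFAM is a protein that coats mitochondrial DNA and helps to transcribe it. Fat bodies of Drosophila melanogaster larvae were taken 96 hours after egg laying. There were 6 libraries of r4-Gal4>TFAM RNAi (replicates 3 to 8) and 6 of r4-Gal4>WT, called control here (replicates 2, 3, 5, 6, 7 and 8). Both groups carried the r4-Gal4 driver, which is active mainly in the larval fat body. The labels named neither the RNAi construct nor the genetic backgrounds, so knockdown and background cannot be told apart, and they did not say whether replicates were separate animals or cultures, so the spread between them may be partly technical. Lists of 6 values below run in the order of these replicate numbers.

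TFAM averaged 24.2 ± 1.92 TPM in TFAM RNAi and 91.9 ± 8.21 TPM in control (SD, n = 6 each), a log2 fold change of -1.88. The summed TPM of 9 fat body markers was 103730 to 134210 in TFAM RNAi and 100860 to 154880 in control. Among them Fbp2 was called higher in TFAM RNAi by limma (2089 and 142 TPM) and Nplp2 lower (42110 and 61900 TPM), and Fbp1 was at 0.858 and 0.449 TPM. The summed TPM of 8 haemocyte markers was 34.1 to 90.8 in TFAM RNAi and 90.3 to 271 in control, and that of 6 ring gland markers 3.24 to 17.3 and 42.9 to 76.2. Within these lists most of the difference lay in 2 genes, Pxn (5.28 and 135.9 TPM) and sad (0.539 and 55.5 TPM), both called lower in TFAM RNAi. The ring gland marker sro was called higher (5.49 and 0.945 TPM). The haemocyte markers PPO1 (17.7 and 10.5 TPM), PPO2 (19.9 and 12.8 TPM), Hml (2.58 and 2.21 TPM) and He (9.08 and 7.57 TPM) were not called. NimC1, eater and lz of the haemocyte list and dib and nvd of the ring gland list averaged under 1 TPM in both groups. Summed over all lists of other tissues, markers reached 2404 to 7601 TPM in TFAM RNAi and 3231 to 11137 TPM in control. Ranges overlapped for muscle, salivary gland, neuron, midgut, gonad, trachea and cuticle, and imaginal disc, and slightly for haemocyte. In midgut and imaginal disc 1 marker each was called higher in TFAM RNAi, and in neuron 1 higher and 1 lower. The part of other tissues in the results was not tested. Without the 2 libraries of each group richest in these markers 14 genes met the rule, 9 of the 10 (all except CG18095) and 5 others (CG17261, CG4594, Psa, Root and Tm2). Leaving out libraries cannot make separate groups overlap, and fewer libraries are separate more readily. Nothing about other tissues is therefore read from these counts. In bulk tissue, fewer cells of a type and less RNA per cell cannot be told apart.

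The 10 genes lay at the far end of the eligible genes, as the rule required. The largest share difference of a transcript was 28.7 points in the median of the 10 genes and 2.17 points in the median of the other 1856. The transcript with the largest difference is called the shifting transcript below, and that with the largest difference of the opposite sign its partner. In 7 of the 10 genes the shifting transcript had the lower share in TFAM RNAi, and in 3 the higher. Chi and CG9662 have only 2 transcripts each, whose differences are equal and opposite. Which of them is called shifting was therefore arbitrary, and nothing is read from the split of 7 and 3. The gap between the lowest share of one group and the highest of the other ran from 6.49 points (sima) to 66.8 points (CG5989). In 9 of the 10 genes the partner's shares did not overlap either, the exception being CG40160. In Chi and CG9662, with 2 transcripts each, this follows from the shifting transcript. Some transcript's shares were free of overlap in 220 eligible genes (11.8%). A difference of at least 25 points, with or without overlap, was found in 15 genes (0.804%).

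**Figure D1:**
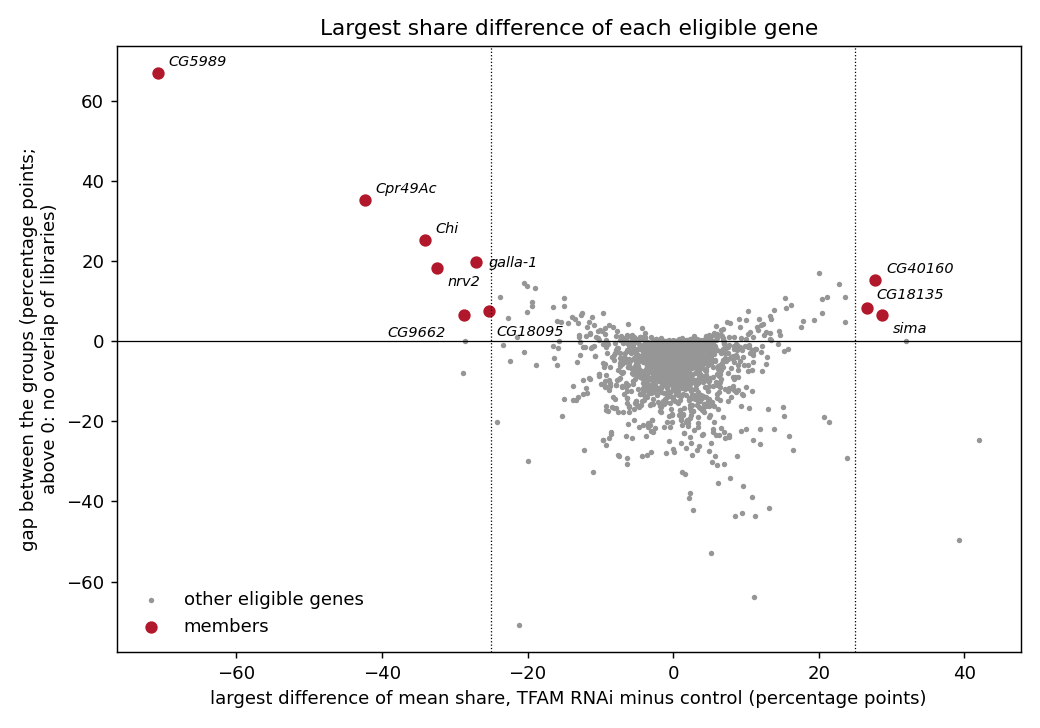
Each point is 1 of the 1866 eligible genes, placed by the largest difference of a mean transcript share, TFAM RNAi minus control (x axis, percentage points), and by the gap between the libraries of the groups for that transcript (y axis, percentage points, above 0 where the groups did not overlap). The 10 named genes (red) lie above 0 and outside the dotted lines at 25 points, with CG5989 at -70.8 points farthest from the rest. In genes with 2 transcripts the side of the x axis is arbitrary.

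Just inside the limit of 25 points lay CG18095 (25.3 points), CG18135 (26.6 points) and galla-1 (27.1 points). Just outside it, with no overlap, lay Nmda1 (a share of 36.7% in TFAM RNAi and 60.4% in control), Root (25.3% and 1.72%) and CAP (59.6% and 36.0%). In Root the TFAM RNAi libraries spread from 7.29 to 64.1%. Another 5 genes differed by at least 25 points but had overlapping libraries: CREG, Peritrophin-15b, CG9928, CG17261 and CG4594.

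A change in share can come with a change of the whole gene or without one. With a limit of 1.5-fold on mean TPM and no test, the means of the pair differed in opposite directions in 4 genes, the shifting transcript lower and its partner higher in TFAM RNAi (CG5989, nrv2, CG9662 and CG18095). In nrv2 the partner's TPM overlapped between the groups, and in CG18095 that of the shifting transcript did. In 3 genes both transcripts were lower but to different degrees (Chi, galla-1 and Cpr49Ac), in CG18135 both were higher, and in sima and CG40160 only 1 of the pair passed that limit. The gene total did not overlap between the groups in 6 of the 10 (Chi, galla-1, nrv2, Cpr49Ac, CG5989 and CG18135), against 13.3% of all 9951 genes tested. In limma over all genes, the total was called at an adjusted p under 0.05 for 7 of the 10, against 19.6% of all genes. It was higher in TFAM RNAi for 3, against 5.75% of all genes, and lower for 4, against 13.8%. These totals come from the same contrast as the rule, and nothing is read from the counts. Among the other 1856 eligible genes, 11 were at least 5-fold lower in total, as were 4 of the 10.

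**Figure D2:**
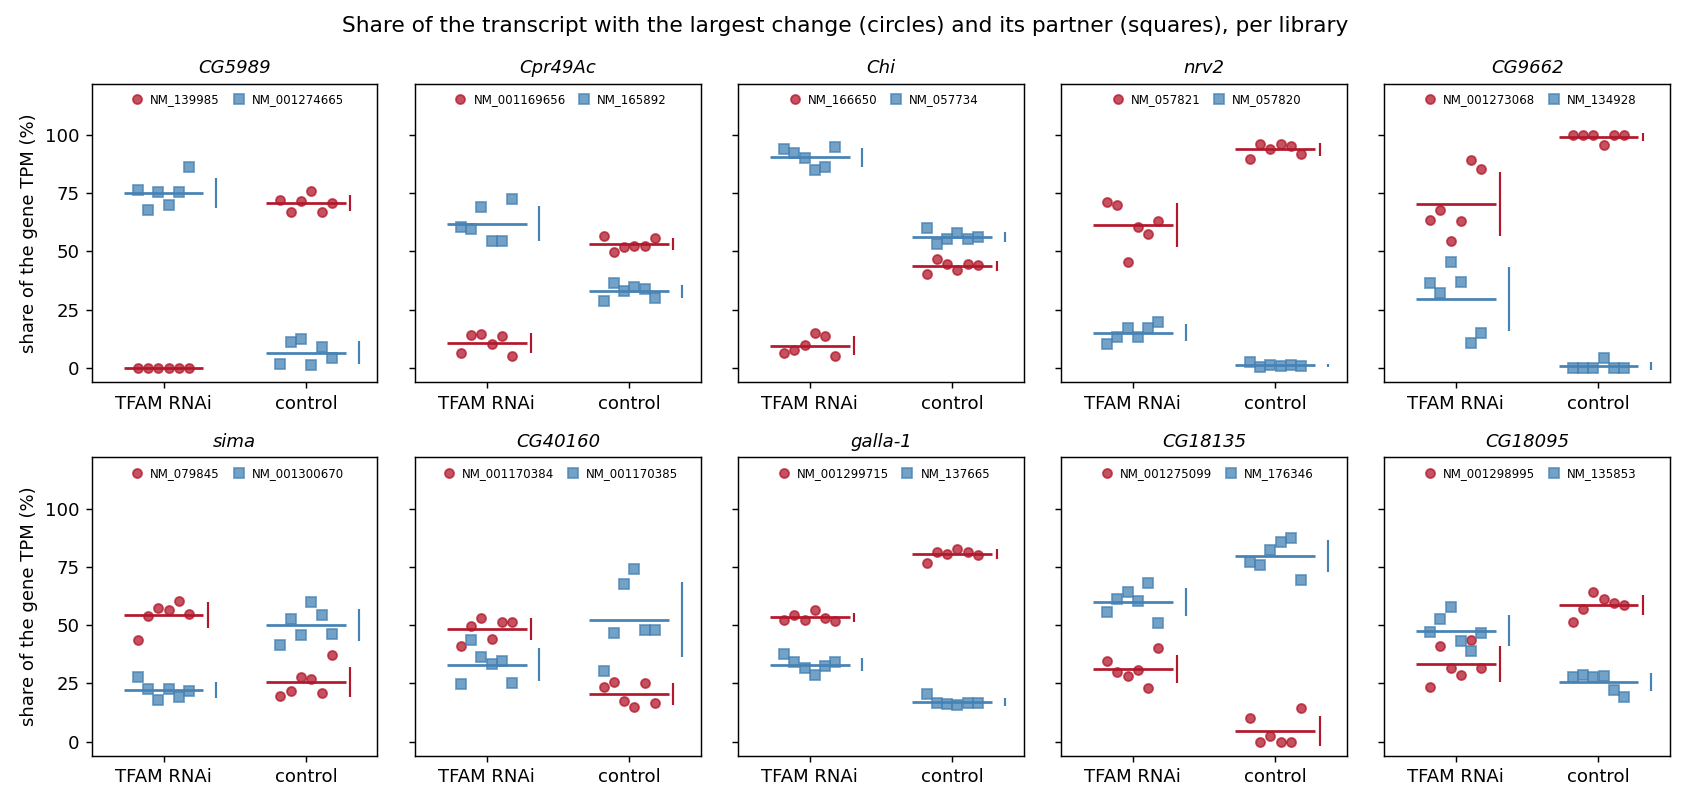
Share of the gene's TPM (y axis, percent) held by the shifting transcript (red circles) and its partner (blue squares) in the 6 TFAM RNAi libraries (left) and the 6 control libraries (right) of each of the 10 genes, with the mean as a horizontal line and the SD as a vertical bar. Circles of the groups do not overlap in any panel; in CG40160 the squares do, and in CG18135 control replicates 2 and 8 lie above the other 4 controls.

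Among regulators of transcription, sima encodes the fly HIF-alpha subunit, the oxygen-regulated transcription factor of the hypoxia response. Its transcript NM_079845 held 43.5, 53.8, 57.2, 56.5, 60.2 and 54.9% of the gene in TFAM RNAi, against 19.5, 21.8, 27.6, 26.9, 21.0 and 37.1% in control. All TFAM RNAi libraries lay above all controls, with control replicate 8 nearest to them. Its partner NM_001300670 held 17.8 to 27.9% in TFAM RNAi and 41.4 to 60.1% in control, so the leading transcript was another one in each group. The gene total was 9.76, 29.6, 40.3, 42.9, 45.5 and 24.8 TPM in TFAM RNAi, against 30.4, 36.6, 90.4, 31.4, 35.9 and 75.9 TPM in control. These totals overlapped widely, control replicates 5 and 8 being far above the other controls and TFAM RNAi replicate 3 below the rest of its group.

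In abundance the sima switch lay mainly in a smaller amount of NM_001300670. It averaged 6.76 TPM in TFAM RNAi and 24.4 TPM in control, 3.61-fold lower, and its libraries did not overlap (2.72 to 9.72 and 12.6 to 41.3 TPM). NM_079845 averaged 18.1 TPM in TFAM RNAi and 13.8 TPM in control, with overlapping libraries. Another transcript, NM_001144657, held at most 2.94% in TFAM RNAi, against 2.61 to 14.3% in control. It was also lower in abundance, at 0.338 TPM in TFAM RNAi and 3.69 TPM in control, without overlap. The authors' deposited technical variance for it was large, 1.87. The reference annotation holds 4 coding transcripts of sima from 3 starts, with proteins of 426, 869, 1507 and 1593 residues. Transcript lengths estimated from the authors' mean log counts matched NM_001144657 to the 426-residue form (sima-RB) and NM_001276171 to the 869-residue form (sima-RC). The remaining forms, sima-RA with 1507 residues and sima-RD with 1593, start 4611 bases apart and have different first exons. Their lengths, 6178 and 5978 bases, are too close to say which of them is NM_079845 and which NM_001300670.

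Chi encodes Chip, a cofactor that binds LIM-domain transcription factors and helps enhancers act on distant promoters. Its total was 18.2, 17.3, 24.8, 24.2, 24.8 and 20.2 TPM in TFAM RNAi, against 255, 280.3, 302, 232, 276 and 196 TPM in control. The groups were far apart, the mean in control being 11.9-fold that in TFAM RNAi (21.6 ± 3.42 and 256.9 ± 38.2 TPM). NM_166650 held 6.21, 7.62, 9.90, 15, 13.8 and 5.06% of the gene in TFAM RNAi, against 40.2, 46.7, 44.5, 42.2, 44.7 and 44.0% in control. The other transcript, NM_057734, made up the rest and led in both groups.

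Both Chi transcripts were thus less abundant in TFAM RNAi, unequally: NM_166650 was 52-fold lower (2.16 and 113 TPM) and NM_057734 7.43-fold lower (19.4 and 144 TPM). The annotation gives Chi transcripts from starts 175 bases apart, Chi-RA with a protein of 577 residues and Chi-RB with 596. They share their second exon, and the start of the longer reading frame lies in the first exon of Chi-RB. At 2156 and 2125 bases they could not be assigned to the accessions by length. The uncertainty of the smaller transcript was large: the authors' deposited table gave NM_166650 a technical variance of 1.14 on the natural log scale, against 0.00837 for NM_057734.

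**Figure D3:**
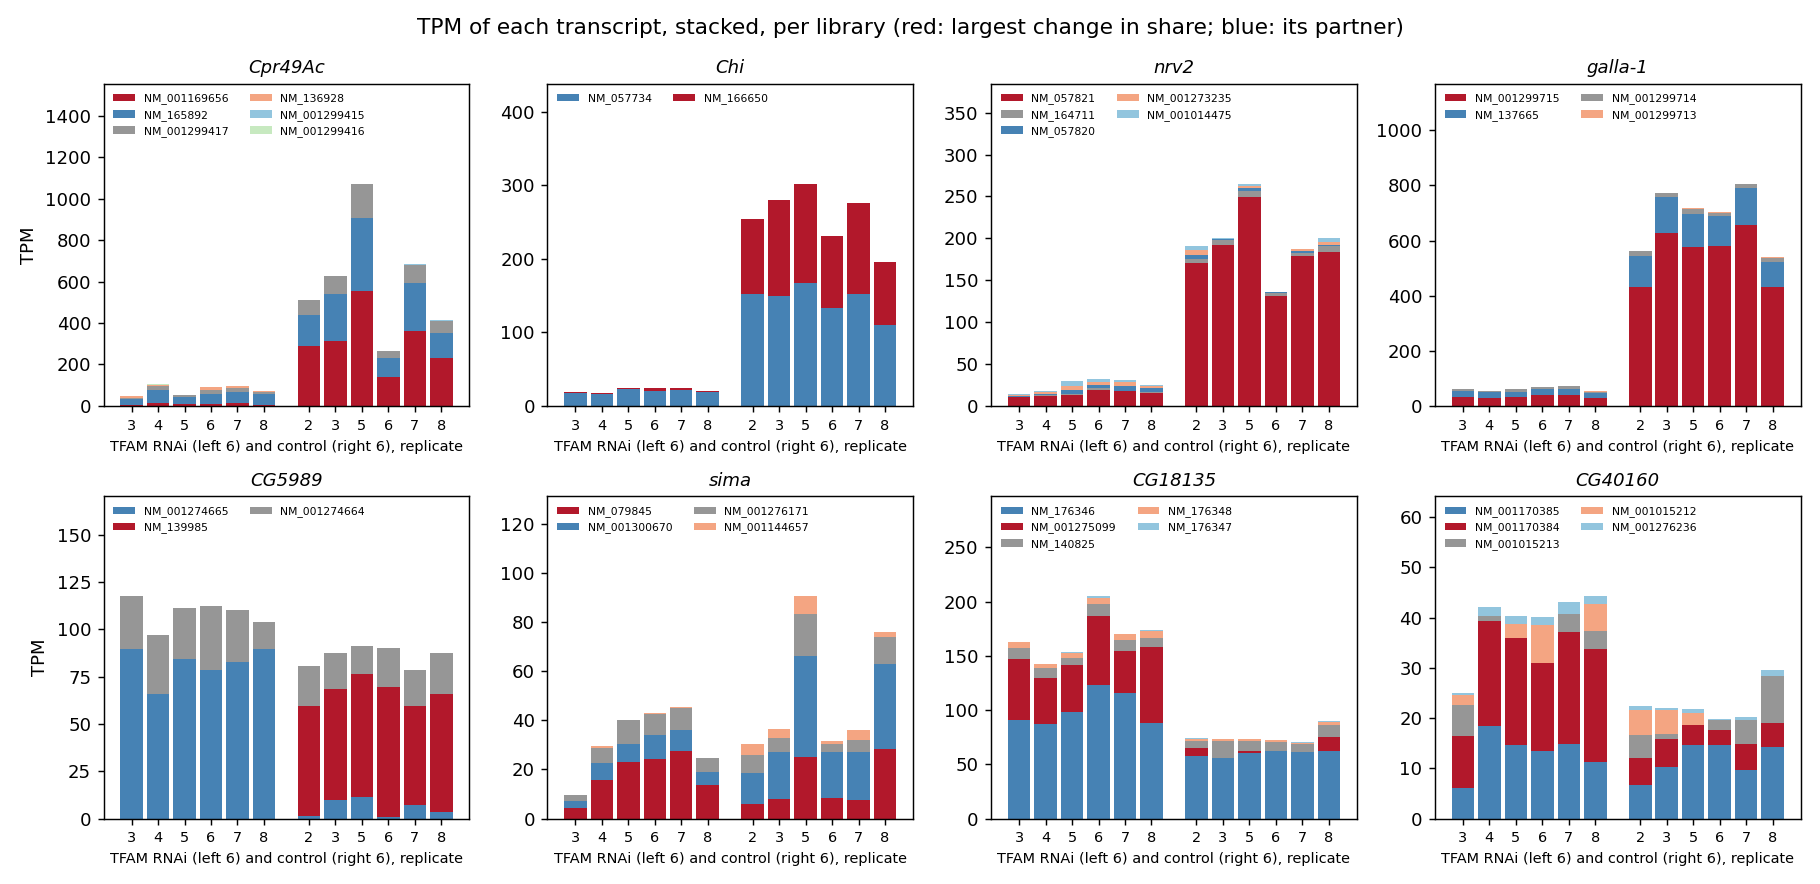
TPM (y axis, linear) of the mRNA transcripts of 8 genes that reached 0.5 TPM in a library, stacked, in each TFAM RNAi library (left 6 bars) and each control library (right 6 bars), with the replicate number below; red is the shifting transcript and blue its partner. In Cpr49Ac, Chi, nrv2 and galla-1 the TFAM RNAi bars are several-fold lower than the control bars, whereas in CG5989 the totals differ 1.27-fold and red is absent from the TFAM RNAi bars.

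Among genes of metabolism and transport, galla-1 encodes a small protein related to the FAM96 (CIAO2) family, which in human cells takes part in cytosolic iron-sulfur protein assembly. Its total was 62.1, 55.6, 61.9, 69.8, 72.7 and 52.4 TPM in TFAM RNAi, against 563, 773, 717, 702, 807 and 539.6 TPM in control. The highest TFAM RNAi library was far below the lowest control. NM_001299715 held 52.3, 54.2, 52.1, 56.7, 53.3 and 51.7% in TFAM RNAi, against 76.6, 81.3, 80.7, 82.8, 81.4 and 80.3% in control. These shares were tight within each group, with SDs of 1.87 and 2.10 points. NM_137665 held 28.7 to 37.5% in TFAM RNAi and 15.5 to 20.3% in control, and NM_001299714 held 9.93 to 16% and 1.41 to 2.84%.

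The galla-1 transcripts differ enough in length to be identified. Estimated lengths matched NM_001299715 to galla-1-RD, of 599 annotated bases, which starts 923 bases downstream of the first start and encodes 152 residues. NM_137665 matched galla-1-RA, NM_001299714 galla-1-RC and NM_001299713 galla-1-RB, which start farther upstream and all encode the same 218 residues. The short form was 16.5-fold lower in mean TPM (33.4 in TFAM RNAi and 551 in control). The 218-residue form NM_137665 was 5.62-fold lower (20.6 and 116 TPM), and NM_001299714 averaged 8.13 TPM in TFAM RNAi and 14.6 TPM in control. The exons of galla-1 overlap 397 bases of exu on the other strand. exu averaged 79.6 ± 39.6 TPM in TFAM RNAi and 61.4 ± 28.6 TPM in control, and the libraries were made with a directional kit.

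nrv2 encodes Nervana 2, a beta subunit of the sodium-potassium pump. Its total was 14.7, 17.5, 29.2, 32.1, 30.8 and 24.8 TPM in TFAM RNAi, against 190.4, 201, 265, 137, 188 and 201 TPM in control. No library of one group came near the other, and control averaged 7.92-fold TFAM RNAi. NM_057821 held 71.3, 69.7, 45.6, 60.5, 57.3 and 63.2% in TFAM RNAi, against 89.6, 95.9, 93.8, 96.1, 95.4 and 91.8% in control. It led in every library, with TFAM RNAi replicate 5 the lowest.

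Where NM_057821 held less, 3 minor transcripts held more. NM_057820 held 10.1 to 19.8% in TFAM RNAi and 0.242 to 2.52% in control, NM_001273235 8.79 to 16.6% and 0.313 to 2.62%, and NM_001014475 3.40 to 19.8% and at most 2.55%. In abundance these minor transcripts were low in both groups. NM_057820 averaged 3.88 TPM in TFAM RNAi and 2.23 TPM in control, with overlapping libraries (1.49 to 5.30 and 0.486 to 4.81 TPM), whereas NM_057821 was 12.5-fold lower in TFAM RNAi (14.8 and 184 TPM). The annotation gives nrv2 6 transcripts from 4 starts and 2 coding sequences, of 322 and 323 residues, that differ in their first coding exon. The summed TPM of 6 neuron markers, of the nervous system, where nrv2 is also known to be active, was 29.3 to 35.4 in TFAM RNAi and 23.6 to 37.9 in control. Most of that sum was Syt1, called higher (28.4 and 23.2 TPM), while Sh was called lower (0.169 and 4.09 TPM), and their part in the nrv2 result was not tested.

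CG18135 encodes a predicted glycerophosphodiester phosphodiesterase, an enzyme type that degrades deacylated phospholipids. Its total was 163, 143, 153, 205, 169.9 and 173 TPM in TFAM RNAi, against 74.3, 73.5, 73.5, 72.3, 70.4 and 89.6 TPM in control. The groups did not overlap. NM_001275099 held 34.8, 29.9, 28, 30.9, 22.9 and 40.4% in TFAM RNAi, against 10.3, 0.0272, 2.38, 0.00715, 0.0335 and 14.5% in control. The controls were split, with replicates 2 and 8 above 10% and the other 4 at or below 2.38%.

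NM_001275099 averaged 52.4 TPM in TFAM RNAi and 3.74 TPM in control, and the control mean was 1.89 TPM without replicate 8. Its partner NM_176346 led in both groups and was also higher in TFAM RNAi, 1.68-fold (101 and 59.9 TPM). The annotation gives CG18135 5 starts with a coding sequence each, for proteins of 636 to 770 residues with a shared end. Its exons overlap 283 bases of CG3808 on the same strand, a gene at 18.3 TPM in TFAM RNAi and 16.2 TPM in control.

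CG9662 encodes a predicted small subunit of the oligosaccharyltransferase, which attaches sugar chains to proteins in the endoplasmic reticulum. NM_001273068 held 63.4, 67.7, 54.5, 63.0, 89.2 and 85.2% in TFAM RNAi, against 95.8% in control replicate 6 and at least 99.9% in the other 5 controls. TFAM RNAi replicates 7 and 8 were nearest to the controls. The other transcript, NM_134928, was at 12.1, 12.1, 19.1, 15.4, 4.28 and 6.06 TPM in TFAM RNAi, against 1.81 TPM in control replicate 6 and at most 0.0463 TPM in the other controls. Its control mean of 0.311 TPM rested on that replicate and was 0.0106 TPM without it. The gene total overlapped slightly, at 39.1 ± 3.39 TPM in TFAM RNAi and 46.6 ± 6.45 TPM in control.

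The annotated transcripts of CG9662 differ in a single place, a 3' end that lies 51 bases farther upstream in CG9662-RA than in CG9662-RB, and both encode the same 149 residues. The accessions could not be assigned to them by length. The authors' deposited table gave NM_134928 a technical variance of 1.36 on the natural log scale, over all 12 libraries including the controls near 0, against 0.0229 for NM_001273068.

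CG40160 encodes a predicted serine protease homologue, a protein with the fold of a secreted protease. Its total was 24.9, 42.1, 40.3, 40.1, 43.2 and 44.2 TPM in TFAM RNAi, against 22.4, 22.0, 21.8, 19.9, 20.2 and 29.6 TPM in control. TFAM RNAi replicate 3 was below control replicate 8, and the other libraries were separate. NM_001170384 held 41.0, 49.5, 53.2, 44.0, 51.5 and 51.2% in TFAM RNAi, against 23.6, 25.8, 17.7, 15, 25 and 16.7% in control. It was 4.14-fold higher in mean TPM (19.2 and 4.63 TPM). NM_001170385 was at 13.1 and 11.7 TPM, and its shares overlapped (24.8 to 43.7% and 30.2 to 74.2%). All 6 annotated transcripts of CG40160 encode the same 421 residues and differ in their untranslated parts. The authors' deposited technical variance was 0.0473 for NM_001170384 and 0.927 for NM_001170385.

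Cpr49Ac encodes a cuticular protein of the family with a chitin-binding Rebers and Riddiford motif. Its total was 47.0, 106, 52.5, 90.7, 98.3 and 72.5 TPM in TFAM RNAi, against 512, 629, 1073, 266, 686 and 414 TPM in control. The controls spread widely but all lay above TFAM RNAi, and their mean was 7.66-fold higher. NM_001169656 held 6.21, 14, 14.5, 10.3, 13.8 and 5.29% in TFAM RNAi, against 56.6, 49.8, 51.7, 52.1, 52.5 and 55.6% in control. Although the control totals spread widely, the control shares were close together, with an SD of 2.56 points.

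NM_165892 led in TFAM RNAi, with 54.4 to 72.4% there and 28.9 to 36.3% in control. NM_001169656 was 36.2-fold lower in TFAM RNAi (8.68 and 314 TPM) and NM_165892 4.16-fold lower (47.3 and 197 TPM). NM_001299417 held 14.7 to 19.4% in TFAM RNAi and 12.4 to 15% in control. NM_136928 was listed at 0 in all control libraries. In TFAM RNAi it was near 0 in replicate 5 (5.7e-06 TPM) and held 6.25 to 17.0% in the other libraries. The annotated proteins of Cpr49Ac have 123 to 324 residues. The estimated length of NM_001169656, 1803 bases, is nearest to those of Cpr49Ac-RD (1733 bases, 123 residues) and Cpr49Ac-RG (1701 bases, 315 residues), between which it does not decide. Summed markers of trachea and cuticle, the tissues that make cuticle, were at 179 to 2166 TPM in TFAM RNAi and 204 to 4423 TPM in control, so overlapped, and their part in the Cpr49Ac result was not tested.

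CG5989 had the widest separation of all eligible genes. NM_139985 was listed at 0 in all 6 TFAM RNAi libraries, and was at 58.3, 58.8, 65.1, 68.4, 52.3 and 62.0 TPM in control, where it held 72.3, 67.1, 71.5, 76.0, 66.8 and 70.8% of the gene. NM_001274665 took its place, with 76.4, 67.7, 75.7, 69.9, 75.3 and 86.1% in TFAM RNAi, against 1.54, 11.3, 12.6, 1.08, 8.88 and 4.17% in control. The exchange was present in every library. The remaining transcript, NM_001274664, held 13.9 to 32.3% in TFAM RNAi and 15.9 to 26.2% in control. The authors' deposited technical variance was 0.456 for NM_001274665 and 0.00689 for NM_139985.

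The gene total of CG5989 differed 1.27-fold in the mean, at 117, 97.1, 111, 112, 110.2 and 104 TPM in TFAM RNAi, against 80.6, 87.7, 91.0, 89.9, 78.3 and 87.6 TPM in control, with no overlap. The annotated transcripts start and end at the same positions and differ only where the second exon begins. Relative to CG5989-RA it begins 6 bases farther downstream in CG5989-RB and 33 bases in CG5989-RC, with proteins of 436, 434 and 425 residues. The forms are thus set apart by a choice among nearby splice acceptor sites, but are too alike in length to be assigned to the accessions. Among all 6363 eligible transcripts, 2 were under 0.1 TPM in all TFAM RNAi libraries and at least 5 TPM in all controls (those of CG5989 and ReepA), and 1 showed the reverse (CG15199). Whether the groups differ in sequence at these sites was not tested.

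CG18095, a gene of no role named here, lay nearest to the limit. NM_001298995 held 23.5, 41.2, 31.4, 28.5, 43.7 and 31.6% in TFAM RNAi, against 51.3, 56.7, 64.4, 61.1, 59.4 and 58.6% in control. NM_135853 held 47.0, 52.6, 57.8, 43.2, 38.8 and 46.7% in TFAM RNAi, against 27.9, 28.4, 27.8, 28, 22.0 and 19.1% in control. Neither transcript's shares overlapped between the groups, and by mean share the leader was another one in each. In the TFAM RNAi library with 43.7% of NM_001298995 that transcript still led, against 38.8% of NM_135853. The total overlapped, at 22.9 ± 5.05 TPM in TFAM RNAi and 20.5 ± 4.66 TPM in control. The annotated forms differ near the 3' end: CG18095-RB splices out 198 bases and encodes 564 residues, CG18095-RA keeps them and encodes 548, and CG18095-RC, with the same 548 residues, ends 359 bases upstream of CG18095-RA. Their exons overlap 107 bases of hll on the other strand, which was at 2.88 TPM in TFAM RNAi and 11.2 TPM in control.

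Set side by side, the leading transcript by mean share was another one in each group in 5 of the 10 genes (sima, CG40160, Cpr49Ac, CG5989 and CG18095). This held for 4.66% of eligible genes. In the other 5 of the 10 the leader was the same. Of their 41 transcripts, 37 were in the authors' transcript tests, and 24 of these had a Wald q-value under 0.05 in the authors' deposited table, against 9.22% of all 21722 tested. The limma fit on log2(TPM + 1) also called 24 of 37, against 17.3% of all transcripts tested. Both use the contrast that chose the genes.

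All 10 genes were found in the annotation. More than 1 coding sequence was annotated for 8 of them, all except CG9662 and CG40160, whereas 1105 of the other 1856 eligible genes (59.5%) had only 1. The 10 genes had a median of 4 NM_ transcripts and the other eligible genes 2; the rule set a minimum on this number and on the gene total, and genes with more transcripts have more chances to meet it. The median number of annotated starts was 2 in both. Of the 10 genes, 3 each lay on 2L, 2R and 3L, 1 on 3R and 0 on X. In that order these held 395, 395, 344, 399 and 303 of the other 1856 eligible genes. With 10 genes nothing is read from these counts. The median control total was 80.7 TPM for the 10 genes and 72 TPM for the others. The authors' technical variance had a median of 0.0108 for the shifting transcripts and 0.00617 for the transcript of largest difference in the other genes. In genes with 2 transcripts, Chi and CG9662 among them, the choice of that transcript was arbitrary. Among the shifting transcripts the large values were that of Chi, given above, and 0.706 in CG18135. In CG9662, CG40160 and CG5989 the large values belonged to the partners.

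Genes that act in splicing, 3' end formation and nonsense-mediated decay were listed by textbook role, 87 in 7 lists, of which 86 could be tested. None was called higher in TFAM RNAi by limma at an adjusted p under 0.05, where 5.75% of all genes were, although 3 were higher at an unadjusted p under 0.05. Lower in TFAM RNAi were 10 (11.6%), against 13.8% of all genes. The median log2 fold change was 0.078 over the lists and 0.012 over all genes. Splicing regulators of the hnRNP and KH-domain type had 0 of 17 called in either direction, at a median of 0.36, and splicing kinases 0 of 4.

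Among SR proteins, which bind exons and recruit the spliceosome, Rsf1 and tra2 fell. Rsf1, a protein related to SR proteins that represses splicing, averaged 18 ± 1.74 TPM in TFAM RNAi and 82.7 ± 16 TPM in control (log2 fold change -2.12, SE 0.13, adjusted p = 1.5e-07 in limma). tra2, the partner of tra in female-specific splicing, averaged 44.8 ± 9.55 TPM in TFAM RNAi and 101 ± 23.0 TPM in control (log2 fold change -1.16, SE 0.18, adjusted p = 3.6e-04). In cleavage and polyadenylation, 4 of 17 genes fell, among them Clp (9.15 and 14.9 TPM, log2 fold change -0.65), Fip1 (12.1 and 18.1 TPM, -0.56) and Cpsf5 (32.7 and 42.7 TPM, -0.37). Clp and Fip1 are subunits of the factor that recognises the polyadenylation signal.

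The remaining calls were small: the U1 and U2 snRNP protein gene snf (log2 fold change -0.28), snRNP-U1-C (-0.32), and tsu and mago of the exon junction complex (-0.28 and -0.20). Rsf1, tra2, Clp and Fip1 were called in all 20 alternative settings. The calls of snf, snRNP-U1-C, tsu and mago were lost with quantile normalization, with median-ratio scaling, with the replicate block and when the 4 libraries with most signal of other tissues were left out. Those of snRNP-U1-C and tsu were also lost without TFAM RNAi replicate 4 or 7 or control replicate 7, and that of snRNP-U1-C without TFAM RNAi replicate 8. Quantile normalization also lost Cpsf5 and Cpsf6 and called 4 genes of the lists higher. Whether these genes act on the 10 that switched was not tested.

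The sex of the larvae was not labelled, and the total TPM of genes of sex-specific splicing was therefore described. Shares of their transcripts are not given here, and totals cannot show sex-specific splice forms. Sxl averaged 15.6 ± 4.88 TPM in TFAM RNAi and 13.1 ± 5.75 TPM in control, and the male-specific lncRNA roX1 41.3 ± 18.5 and 34.2 ± 16.3 TPM. Neither these nor tra, dsx, fru, msl-2 or roX2 were called. Yp3, a yolk protein gene of adult females, averaged 85.5 ± 21.5 TPM in TFAM RNAi and 11.5 ± 7.34 TPM in control (log2 fold change 2.93, adjusted p = 1.6e-05 in limma), while Yp1 and Yp2 were under 1 TPM in both groups.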

How the data were processed

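RNA was sequenced from 12 fat body libraries, 6 TFAM RNAi and 6 control, made with a directional kit per the labels. The authors deposited TPM for 34213 RefSeq transcripts, with each library summing to 1000000, and p-values and q-values of transcript tests beside coefficients, mean counts and variances on a natural log scale. The submitters' processing notes name sleuth. Quantifier, annotation and build: not given in the sources used here. TPM keeps no depth, so counting intervals are not given; the authors' mean log counts were used only as estimated counts per transcript.

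Accessions were assigned to genes through a RefSeq gene table of Release 6 plus ISO1 MT (34056 matched, 99.54%), and shares were taken over NM_ transcripts in pandas 2.3.3. Gene and transcript TPM were tested with limma 3.58.1 (R 4.3.3) on log2(TPM + 1), for means of at least 1 TPM over all libraries, with Benjamini-Hochberg adjustment over the whole table and a threshold of 0.05, without a replicate block. The method was tested on simulated data.

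Transcript structures come from the reference annotation. Lengths of deposited transcripts were estimated from the authors' mean log count and TPM, calibrated on 931 genes with 1 transcript (92.8% within 10%). An accession was tied to an annotated form only where lengths agreed within 10% and neighbours differed by more, a rule set after the values were seen.

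All 10 genes are named. Of each list of RNA processing genes up to 3 called genes with the smallest adjusted p are named, and others where a count was small. The genes and lists were chosen with earlier results of these data known. Alternatives changed the TPM minimum, the share limit, the transcripts summed, pseudocount, filter, scaling, replicate block and libraries. No sequence or genome coordinate is printed.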

Additional observations from a re-analysis of the deposited data

Results flagged for a closer look

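Within a group of 6 libraries, a value was set apart where its gap to the nearest other library was a large part of the group's range (Dixon's 95% limit). Of 60 groups of values over the 10 genes, 6 were set apart in this way. For normally distributed values chance alone does so in about 1 in 20 groups, and shares near their limits need not be so distributed. The groups were not independent either. In Chi and CG9662 the shares of the pair are complements, so the values of CG9662 below are the same event.

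In CG9662, control replicate 6 had a share of 95.8% for NM_001273068, below 99.9 to 100% in the other controls, and accordingly 4.24% for NM_134928, above 0 to 0.0804%. In galla-1, control replicate 2 had 20.3% for NM_137665, above 15.5 to 16.8% in the other controls and still below all TFAM RNAi libraries.

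In CG40160, the gene total of TFAM RNAi replicate 3 was 24.9 TPM, below 40.1 to 44.2 TPM in the rest of its group, and that of control replicate 8 was 29.6 TPM, above 19.9 to 22.4 TPM. In CG18135, the total of control replicate 8 was 89.6 TPM, above 70.4 to 74.3 TPM in the other controls.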

How the results depend on the processing

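The share differences of the 10 genes kept their sign and stayed within the spread between replicates in all 17 alternatives each. Most of these left out libraries, which cannot reverse the sign in genes chosen for groups without overlap. Leaving out 1 library also always moves a mean share by less than that spread, so nothing is read from those settings. They ranged from -71.5 to -69.7 points for CG5989, and from -27.5 to -23.3 points for CG18095, the gene nearest to the limit. How many genes met the rule followed the limits: 10 as given, 15 with a gene minimum of 10 TPM (all 10 kept), 4 with 50 TPM, 23 with a share limit of 20 points and 2 with 35 points. Leaving out 1 library gave 9 to 12 genes; CG18095 was lost in 8 of the 12 such settings, and CG18135 without TFAM RNAi replicate 8. A pseudocount of 1 TPM also lost CG18095.

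Of all genes, 572 were called higher in TFAM RNAi, but 961 under quantile normalization, 1137 when the 4 libraries with most marker signal of other tissues were left out and 1344 with the replicate block. Of RNA processing genes, 0 were called higher and 10 lower. Higher were 4 under quantile normalization, 1 with a minimum of 5 TPM, 1 with the replicate block, 1 without those 4 libraries, and 0 to 2 when 1 library was left out. Lower were 5 under quantile normalization and 6 without those 4 libraries. The cause of these differences was not tested. Of 5 pairs of same-numbered libraries, replicates 3 and 5 deviated together (correlations of 0.313 and 0.616, each closest to its own number). The other 3 did not (-0.077 to 0.047). The labels do not say that a number marks a shared batch, so the numbers were not taken as pairs. Whether some numbers share a factor was not tested. With the replicate block 3 totals of the 10 genes were called higher and 4 lower, the counts without it, and with median-ratio scaling 2 and 4.

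TPM does not give the depth of each library, so counting error per library was not set beside the shares. The authors' mean log counts give an estimated count per transcript over all libraries, but none per library. Accessions were tied to annotated forms for 2 of the 10 genes only.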
